A study of Macaca mulatta with 17 samples.

Results

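Chemokines are small secreted proteins that direct the movement of leukocytes and other cells along a gradient, and chemokine receptors are the G protein-coupled receptors that read that gradient. The ligands are grouped by the spacing of their first cysteines into the CC, CXC, XC and CX3C classes, and the receptors are named after the class they bind. In the uterus they are known for guiding macrophages, natural killer cells, neutrophils and T cells into the endometrium and for lymphatic and vascular patterning. All probes whose annotation names a gene of these classes, in parentheses or as the similar human gene, were taken, and a gene with several probes was represented by the brightest over all arrays. This gave 57 probes for 50 genes, 37 ligands and 13 receptors, of 16575 distinct gene names on the array.

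RNA from the uteri of female rhesus macaque fetuses was hybridized to 17 Agilent single-color arrays, 1 fetus per array. Dams received 400 µg/kg per day of deuterated bisphenol A (BPA, an estrogenic plastics monomer) in a fruit treat, or the ethanol vehicle alone. The GD100 groups (5 BPA and 5 control) were treated from gestation day 50 and collected by caesarean section at day 100. The GD165 groups (3 BPA and 4 control) were treated from day 100 and delivered vaginally at days 165 to 168, with stillbirths excluded, so that mode of delivery and treatment window cannot be told apart from age. The arrays lay on 6 slides. Levels are log2 signals scaled so that the 75th percentile of every array lies at 12.62. A gene was called in a comparison when its adjusted p in limma, over all 20217 probes, was under 0.01.

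Each array had 83.8 to 89.0% of spots well above background, and no chemokine or receptor probe was saturated on any array (0 of 50). Uterine identity genes (HOXA10, HOXA11, EMX2, PAX8, ESR1 and the muscle genes MYH11 and DES) were well above background on all 17 arrays, and PGR, the progesterone receptor, was on 0. Some libraries stood apart in markers of other tissues. A summed level here is the log2 of the summed linear signals of the markers, so it follows the brightest markers most. The summed level of 9 skeletal muscle markers was 12.7 to 13.9 at GD100 and 13.7 to 17.5 at GD165. Its highest value was in GD165 control replicate 5, followed by 16.5 in GD165 BPA replicate 5. The summed level of 21 squamous epithelium markers was 16.04 to 16.60 in 16 arrays and 17.7 in GD165 control replicate 6. The summed level of 5 erythroid markers was 20.2 and 20.3 in GD165 control replicates 3 and 6, against 18.8 in replicates 1 and 5. HBB was called higher with age in both treatments, while 3 of the 5 erythroid markers were lower. The part of these markers in the chemokine values was not tested.

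Of the 50 genes, 35 were well above background on all 17 arrays (70.0%, against 80.3% of all probes), 10 on some arrays and 5 on none. The 5 genes not well above background on any array were the ligands CCL3, CCL28 and CXCL5 and the receptors CCR4 and CCR8. Among receptors, 9 of 13 were measured on all arrays, among them CCR1, CCR2, CCR6, CCR7, CCR9, CXCR4, CXCR6 and CX3CR1. CCR3 and XCR1 were each above background on 3 arrays. Among CC ligands 18 of 23, and among CXC ligands 8 of 12, were measured on all arrays.

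The probes of 6 ligands that were called carry the age results described below, and the first 30 of the 60 bases of each are shown to identify what was hybridized.
CXCL14: cgtacatgtcagaaaccattagcattgcat
CCL18: gttgaactgcattatgaaatgagtattttc
CCL11: gtcattgttcttgtgaacccaaagtgtcac
CCL19: tgagtgtgagcaagagggtgagcatggtca
CXCL16: aaacaactggcctcaggcccttgcaccctt
CXCL10: ctcccaaggggcccatattctttcagtggc
The coordinates written for the probes mix genome builds and are not given.

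Chemokines resemble one another, so shared sequence between probes of different genes was measured. Over the 1225 pairs of genes the median longest shared run was 6 bases, and only 1 pair shared 12 or more, the CC ligands CCL2 and CCL13. A 30-base stretch of each is shown with the shared run in capitals.
CCL13, bases 7 to 36: ctaaatatgTTATTGTGGAAAgatgaatgc
CCL2, bases 31 to 60: attgctaaaataTTATTGTGGAAAtgaata
The called ligands CXCL10 and CXCL14 shared 11 bases. The remaining bases of these probes differ, and no hybridization between them was tested.

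For CCR9, the receptor of CCL25, 3 probes share a stretch of 18 bases but read very different signals. In capitals is the run all 3 hold, from the brightest probe to the dimmest.
CCR9 probe with mean signal 531, bases 31 to 60: atggtcctttTGGAAGAAATGAGAAATAta
CCR9 probe with mean signal 14.1, bases 1 to 30: TGGAAGAAATGAGAAATAtagaagcagttt
CCR9 probe with mean signal 3.71, bases 17 to 46: ttctttTGGAAGAAATGAGAAATAcatgaa
The brightest was well above background on 17 arrays, the next on 7 and the dimmest on 0, so the values given for CCR9 are those of the brightest probe alone. The 2 CXCR4 probes have the same sequence and differed by at most 0.067 on the log2 scale on any array, which shows the repeatability of a probe within an array. For CCL25 the second probe gave a similar difference with age in controls (-0.68 against -0.59), and for CXCL12 the 2 probes gave 0.26 each. With BPA the 2 CXCL12 probes differed in sign, at 0.07 and -0.22 at GD100 and 0.21 and -0.09 at GD165, none of them called. The 3 CCR8 probes were above background on 0 arrays.

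Between GD100 and GD165 in controls, 5 of the 50 genes were called and all 5 were ligands that rose. They were CXCL14, CCL18, CCL11, CCL19 and CXCL16. Over all 20217 probes 11.5% were called and 6.32% were called higher, so the share of the 50 genes called is close to that of the array. At an unadjusted p under 0.05 there were 22 of 50, of which 21 were higher, against 33.1% of all probes. The groups did not overlap for 8 of 50, against 19.4% of all probes. The median log2 fold change of the 50 genes was 0.45, and that of all probes 0.005. After normexp background correction the median of the 50 genes was 0.21. In controls 39 of 50 genes were higher at GD165, against 50.5% of all probes. None (0) of the 13 receptors was called, and 4 had an unadjusted p under 0.05.

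In BPA-exposed fetuses the same comparison of ages called 4 of 50 genes, again all ligands that rose. They were CCL19, CXCL16, CCL11 and CXCL10. Over all probes 9.68% were called and 4.82% called higher. At an unadjusted p under 0.05 there were 17 of 50 (34.5% of all probes), and the groups did not overlap for 11 of 50 (27.2% of all probes). The median log2 fold change of the 50 genes was 0.14, against -0.05 over all probes, and it was -0.03 after normexp. CCL11, CCL19 and CXCL16 were called in both comparisons, which is 3 of the 5 called in controls and 3 of the 4 called in BPA-exposed fetuses. The 2 comparisons share no sample, but both come from the same limma fit, which estimates the variance of a probe over all arrays. The share of all probes called in both comparisons is not given, so this overlap cannot be set against that of the array.

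CXCL14 is a chemokine made by epithelia and stroma that attracts dendritic cells and monocytes. Its log2 levels were 9.37, 10.81, 10.45, 10.10 and 10.49 in the 5 GD100 controls. They were 13.60, 12.77, 13.41 and 12.21 in the 4 GD165 controls. The 5 GD100 BPA fetuses had 10.60, 8.87, 11.22, 9.89 and 11.10, and the 3 GD165 BPA fetuses had 9.57, 10.99 and 10.34. All 4 GD165 controls lay above every other array, and the remaining 3 groups overlapped. The means ± SD were 10.25 ± 0.55 (n = 5), 13.00 ± 0.64 (n = 4), 10.34 ± 0.97 (n = 5) and 10.30 ± 0.71 (n = 3) in the same order.

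In controls CXCL14 was 6.74-fold higher at GD165 (log2 fold change 2.75 ± 0.47 SE, limma adjusted p = 0.000752). The exact two-sided permutation test gave p = 0.0159, the smallest that 4 against 5 arrays allow when a one-sided p is doubled. Within the slides that held both groups the difference was 2.31 on slide 3 and 3.11 on slide 5. With slide as a block it was 3.04 with an adjusted p of 0.002. In BPA-exposed fetuses the log2 difference between the ages was -0.04 ± 0.51 SE, with a 95% confidence interval of -1.12 to 1.04.

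At GD165, CXCL14 was 6.5-fold lower in BPA than in control fetuses (log2 fold change -2.70 ± 0.53 SE, interval -3.83 to -1.57), with non-overlapping groups. The unadjusted limma p was 0.000137, but the adjusted p of 0.195 did not pass the threshold. The exact permutation p was 0.0571, the smallest that 3 against 4 arrays allow when a one-sided p is doubled. Slide 5 held 2 BPA and 1 control array and gave a difference of -3.32. At GD100 the difference was 0.09 ± 0.44 SE, and within slides 1, 2 and 3 it was 1.48, 0.29 and 0.15. The BPA effect at GD165 minus that at GD100 was -2.79 ± 0.69 SE (limma adjusted p = 0.456), with an exact permutation p of 0.0247 over 8820 regroupings within the ages.

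Squamous epithelium markers also differed between the GD165 groups, and their part in the CXCL14 values was not tested. Of the 21 markers, 19 were lower in GD165 BPA than in GD165 control fetuses, with a median log2 fold change of -0.90 and 0 called. Their summed level was 16.2 to 17.7 in GD165 controls, 16.1 to 16.3 in GD165 BPA, 16.1 to 16.3 in GD100 controls and 16.04 to 16.34 in GD100 BPA fetuses. DSG3, SPRR3 and DSG1 were above background on 0 arrays of the GD165 BPA group and of both GD100 groups, KRT1 on 0 arrays of either GD165 group, and CRNN on 0 GD165 BPA arrays. The array with the highest squamous level, GD165 control replicate 6, had the lowest CXCL14 level of its group, and without it the BPA difference was -2.96 and the age difference 3.02 (adjusted p = 0.00112). Of the 9 skeletal muscle markers 8 were lower in GD165 BPA fetuses, and without GD165 control replicate 5 the CXCL14 difference with BPA was -2.56. All 8 columnar epithelium markers were lower in GD165 BPA fetuses, with a median of -0.43 and 0 called. With age in controls 7 of these 8 were higher (median 0.62), with KRT18, KRT7, CLDN3 and CLDN4 called, and their summed level was 16.8 to 17.5 at GD100 and 17.8 to 18.1 at GD165. With age in BPA-exposed fetuses 6 of the 8 were higher (median 0.47), with KRT7 and CLDN3 called. Of the squamous markers 15 of 21 were higher with age in controls, with PERP called. The part of the columnar markers in the CXCL14 values was not tested either.

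**Figure D1:**
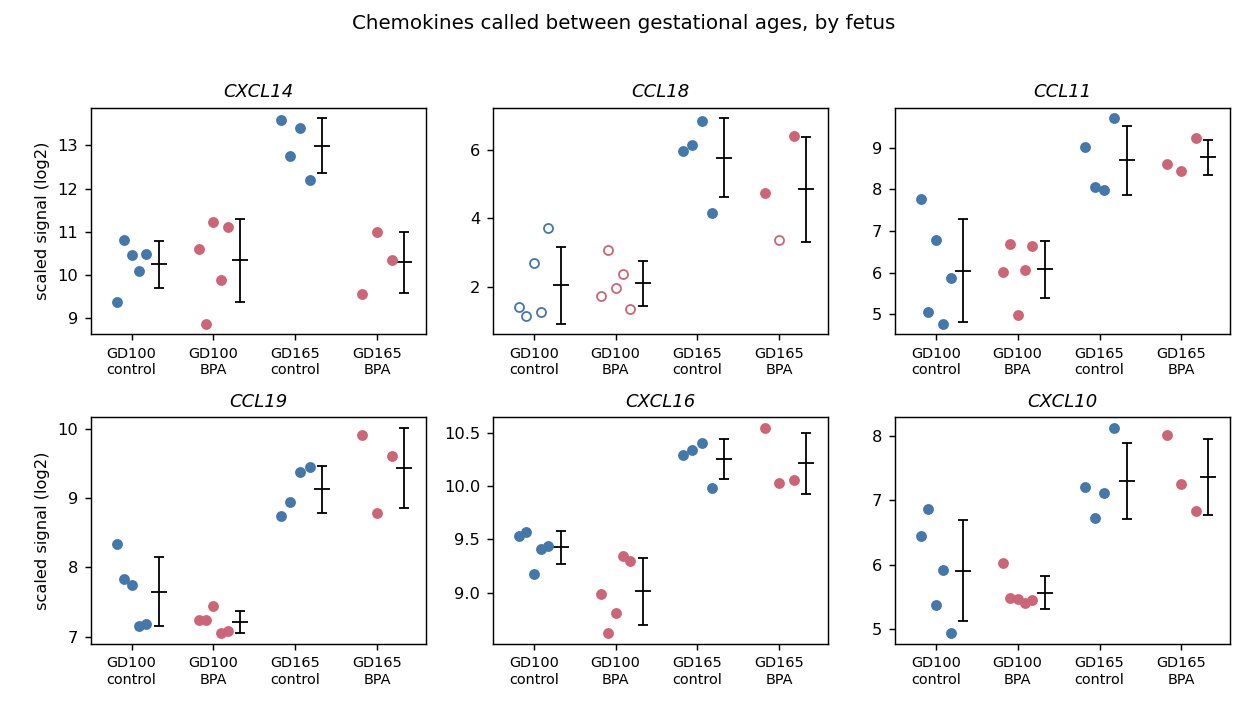
Scaled log2 signal (y axis, a separate scale per gene) of the 6 called ligands in each fetus, by group on the x axis, blue for control and red for BPA. Open points were not well above background, and the black bar beside each group is its mean ± SD. CXCL14 is high only in the 4 GD165 controls, from 12.21 to 13.60, whereas CCL11, CCL19 and CXCL16 are high in both GD165 groups.

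CCL19 is a ligand of CCR7 that guides dendritic cells and T cells toward lymphoid tissue. Its levels were 8.34, 7.84, 7.74, 7.15 and 7.18 in GD100 controls and 8.74, 8.94, 9.38 and 9.44 in GD165 controls. BPA-exposed fetuses had 7.23, 7.23, 7.44, 7.04 and 7.09 at GD100 and 9.91, 8.79 and 9.60 at GD165. Every GD165 array exceeded every GD100 array, by 2.78-fold in controls (1.48 ± 0.26 SE, adjusted p = 0.000875) and 4.68-fold in BPA-exposed fetuses (2.23 ± 0.28 SE, adjusted p = 0.000152). With slide as a block the call was lost in controls (1.47, adjusted p = 0.0156) and held in BPA-exposed fetuses (2.56, adjusted p = 0.00462). The difference between these 2 effects, 0.75 ± 0.38 SE, was not called (adjusted p = 0.654).

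CXCL16 is a membrane-bound ligand of CXCR6 that also takes up oxidized lipids as a scavenger receptor. GD100 controls had levels of 9.54, 9.57, 9.17, 9.41 and 9.44, and GD165 controls had 10.29, 10.34, 10.40 and 9.98. The BPA-exposed fetuses had 8.99, 8.62, 8.81, 9.35 and 9.30 at GD100 and 10.55, 10.03 and 10.05 at GD165. The ages did not overlap in either treatment. The rise was 1.77-fold in controls (0.83 ± 0.16 SE, adjusted p = 0.00187) and 2.29-fold in BPA-exposed fetuses (1.20 ± 0.17 SE, adjusted p = 0.000345). With slide as a block both calls were lost, at adjusted p of 0.0285 (0.82) and 0.0261 (1.02). At GD100 the BPA value was 0.41 lower on average (log2 fold change -0.41 ± 0.15 SE, exact permutation p = 0.0397, limma adjusted p = 1), and the difference was negative on slides 1, 2 and 3.

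CCL11, also called eotaxin, attracts eosinophils through CCR3. Levels in GD100 controls were spread over 7.77, 5.05, 6.78, 4.77 and 5.87, and in GD165 controls they were 9.01, 8.06, 8.0 and 9.71. With BPA the levels were 6.03, 6.69, 4.99, 6.07 and 6.63 at GD100 and 8.61, 8.45 and 9.24 at GD165. All 7 GD165 arrays lay above all 10 GD100 arrays, with the highest GD100 array, a control, at 7.77. The rise was 6.26-fold in controls (2.65 ± 0.56 SE, adjusted p = 0.00356) and 6.44-fold in BPA-exposed fetuses (2.69 ± 0.61 SE, adjusted p = 0.00653). The call in controls was lost without GD165 control replicate 1 (2.54, adjusted p = 0.0126) or replicate 6 (2.31, adjusted p = 0.0165). It was also lost with slide as a block, in controls (2.59, adjusted p = 0.0471) and in BPA-exposed fetuses (3.05, adjusted p = 0.04997). In BPA-exposed fetuses it was lost on leaving out GD100 BPA replicate 1, 3 or 4 or any of the 3 GD165 BPA arrays, with values of 2.41 to 2.85. Over all processing alternatives the lowest log2 fold change of CCL11 was 1.75 in controls and 1.83 in BPA-exposed fetuses.

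CCL18 is secreted by macrophages and dendritic cells and attracts lymphocytes. It was well above background on none of the 10 GD100 arrays. In GD165 controls it was above background on all 4 arrays, at 5.95, 6.14, 6.85 and 4.15, and in GD165 BPA fetuses on 2 of 3, at 4.75 and 6.42, with 3.36 on the other. CCL18 was therefore at least 4.24-fold higher at GD165 in controls (adjusted p = 0.00126), from a mean of 5.77 against the lowest signals that were well above background. In BPA-exposed fetuses 1 of the 3 GD165 arrays was itself not measured above background, so no fold is given, and the gene was not called (adjusted p = 0.017). The call in controls was lost with slide as a block, at 3.04 (adjusted p = 0.0515), and with weights from the scanner's error estimates, at 3.70 (adjusted p = 0.117). After normexp background correction the fitted log2 fold change was 0.89 in place of 3.74, still called (adjusted p = 0.00945).

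CXCL10 is induced by interferon and attracts activated T cells and NK cells through CXCR3. Its levels were 6.45, 6.87, 5.38, 5.92 and 4.94 in GD100 controls and 7.20, 6.73, 7.12 and 8.12 in GD165 controls, groups that overlapped. They were 6.03, 5.49, 5.47, 5.40 and 5.46 in GD100 BPA and 8.0, 7.25 and 6.83 in GD165 BPA fetuses, which did not overlap. The log2 fold change with age was 1.79 ± 0.40 SE in BPA-exposed fetuses (3.47-fold, adjusted p = 0.0059) and 1.39 ± 0.37 SE in controls (2.61-fold, adjusted p = 0.0142). The difference between the 2 was 0.41 ± 0.54 SE and was not called (adjusted p = 0.907). The call in BPA-exposed fetuses was lost without GD100 BPA replicate 2, 3, 4 or 5 or GD165 BPA replicate 3 or 4, with values of 1.47 to 1.85. It was also lost with slide as a block (2.01, adjusted p = 0.0545). Over all processing alternatives the lowest log2 fold change of CXCL10 in BPA-exposed fetuses was 1.01.

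Other interferon-induced ligands were read beside CXCL10. CXCL11, which shares the receptor CXCR3, differed by 0.62 ± 0.47 SE with age in controls and 1.86 ± 0.51 SE with age in BPA-exposed fetuses (adjusted p = 0.018). CXCL9, the other CXCR3 ligand, was above background on 4 of 17 arrays, 1 in each group. At GD100, CXCL11 was 1.10 lower on average with BPA (log2 fold change -1.10 ± 0.44 SE, unadjusted p = 0.0244), and it was not called.

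CCL13, a monocyte and eosinophil chemoattractant, had the widest spread of the genes measured on all arrays. Levels were 10.77, 6.41, 10.80, 8.95 and 6.14 in GD100 controls and 10.75, 10.76, 9.80 and 11.52 in GD165 controls. The groups overlapped, and the difference of 2.10 ± 1.12 SE was not called (adjusted p = 0.214). The lowest value with age among genes above background in controls was that of CCL25, the ligand of CCR9, at -0.59 ± 0.16 SE (adjusted p = 0.0137). Its levels were 11.91 to 12.26 in GD100 controls and 11.30 to 11.94 in GD165 controls, so a single GD165 array reached the GD100 range. Without that array, GD165 control replicate 5, CCL25 was called (-0.73, adjusted p = 0.00348). Next were CCL4, CCL27, CXCR4 and CX3CR1 with -0.36, -0.35, -0.34 and -0.14, none of them called.

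**Figure D2:**
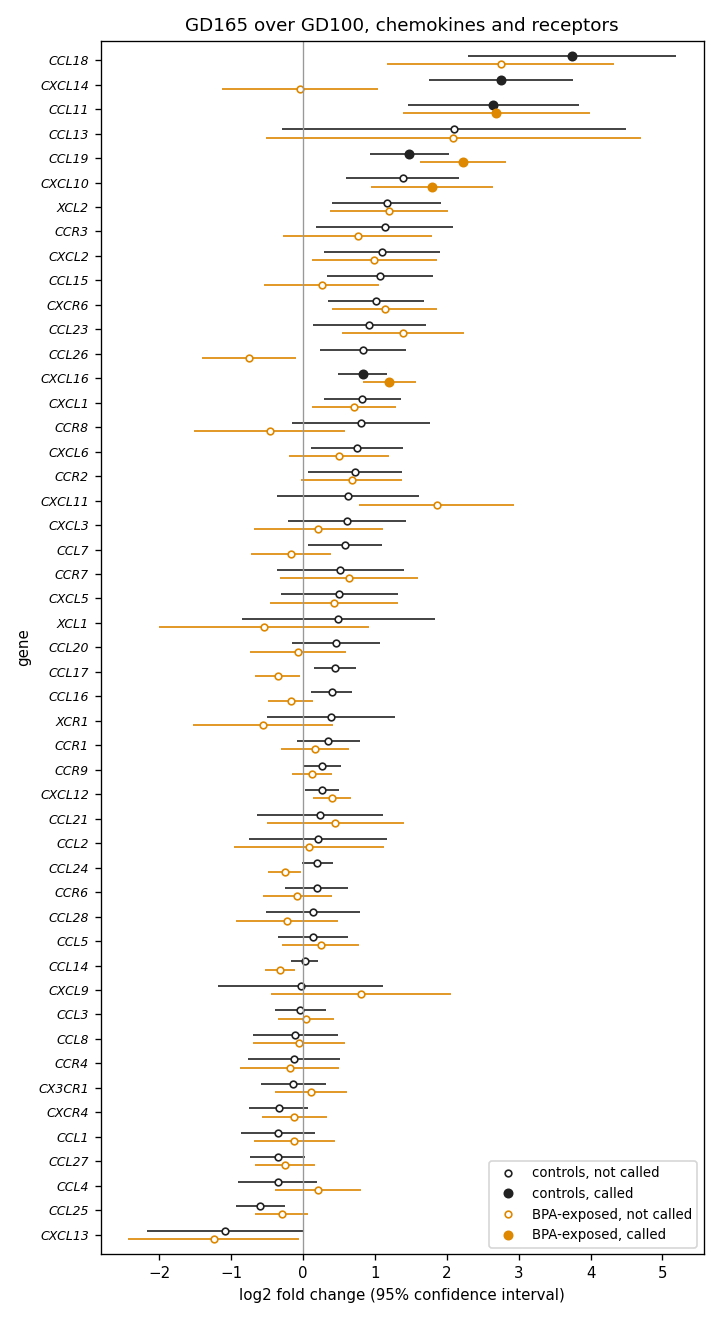
Log2 fold change of GD165 over GD100 (x axis) with its 95% confidence interval for 49 of the 50 genes (y axis), black for controls and orange for BPA-exposed fetuses, filled where called. Values for CCL18 rest on GD100 arrays that were not above background. CCL3, CCL28, CXCL5, CCR4 and CCR8 are drawn too, though above background on 0 arrays. CXCL13, CCL1, CCR3, XCR1 and CXCL9 were above background on only 1 to 4 arrays. For CXCL14 the control value is 2.75 and the BPA value -0.04.

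In both comparisons of BPA with control, 0 of 50 genes were called, as were 0% of all probes. At GD100, 3 of 50 genes had an unadjusted p under 0.05, against 3.79% of all probes. The groups did not overlap for 1 of 50 genes, against 0.782% of all probes. The median log2 fold change was 0.007. The 1 gene was CCL26, eotaxin-3, an eosinophil chemoattractant that signals through CCR3. Its levels were 5.98, 7.45, 6.32, 6.60 and 6.59 in controls and 7.83, 7.98, 8.16, 7.71 and 7.79 in BPA fetuses at GD100. All 5 BPA arrays exceeded all 5 controls, by 2.47-fold (1.31 ± 0.27 SE, unadjusted p = 0.000182, limma adjusted p = 0.918). The exact permutation p was 0.00794, the smallest that 5 against 5 arrays allow. On slides 1, 2 and 3 the difference was 1.87, 0.34 and 1.51. At GD165 the CCL26 levels were 7.54, 7.75, 7.08 and 7.31 in controls and 6.33, 7.63 and 7.47 in BPA fetuses, which overlapped (-0.28 ± 0.32 SE, and 0.13 without GD165 BPA replicate 3).

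At GD165, 7 of 50 genes had an unadjusted p under 0.05, all lower with BPA, against 8.61% of all probes. For 7 of 50 genes the groups did not overlap, also all lower with BPA, against 7.31% of all probes. The median log2 fold change of the 50 genes was -0.11, and that of all probes -0.02. Without scaling of the arrays the median of the 50 genes was 0.05. Of the 50 genes 17 were higher with BPA, against 44.7% of all probes. In the test of the difference between the BPA effects at the 2 ages 0 of 50 genes, and 0% of all probes, were called. At an unadjusted p under 0.05 there were 6 of 50, against 7.83% of all probes.

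After CXCL14, the smallest p at GD165 was that of CCL17, a ligand of CCR4 made by dendritic cells. Its levels were 6.20, 6.30, 6.43 and 6.91 in controls and 5.67, 5.68 and 5.97 in BPA fetuses. No BPA array reached a control, and the difference was -0.69 ± 0.15 SE (unadjusted p = 0.000475, adjusted p = 0.31). At GD100 the CCL17 difference was 0.11 ± 0.13 SE. CCL16 and CCL24 differed by -0.58 ± 0.16 and -0.38 ± 0.11 SE at GD165 (unadjusted p = 0.00207 and 0.00471). CCL20, the ligand of CCR6, and CCL7, a monocyte chemoattractant, differed by -0.76 ± 0.33 and -0.61 ± 0.27 SE. Without GD165 control replicate 1 the CCL7 difference was -0.29. For these 4 ligands the 2 groups did not overlap, and none was called. Among the higher values with BPA at GD165, CCL23 had the largest at 0.85 ± 0.42 SE, with overlapping groups (adjusted p = 0.589). Its levels were 4.26, 4.22, 3.70 and 4.43 in controls and 4.54, 4.16 and 6.32 in BPA fetuses. Without GD165 BPA replicate 5, the array at 6.32, the difference was 0.20.

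**Figure D3:**
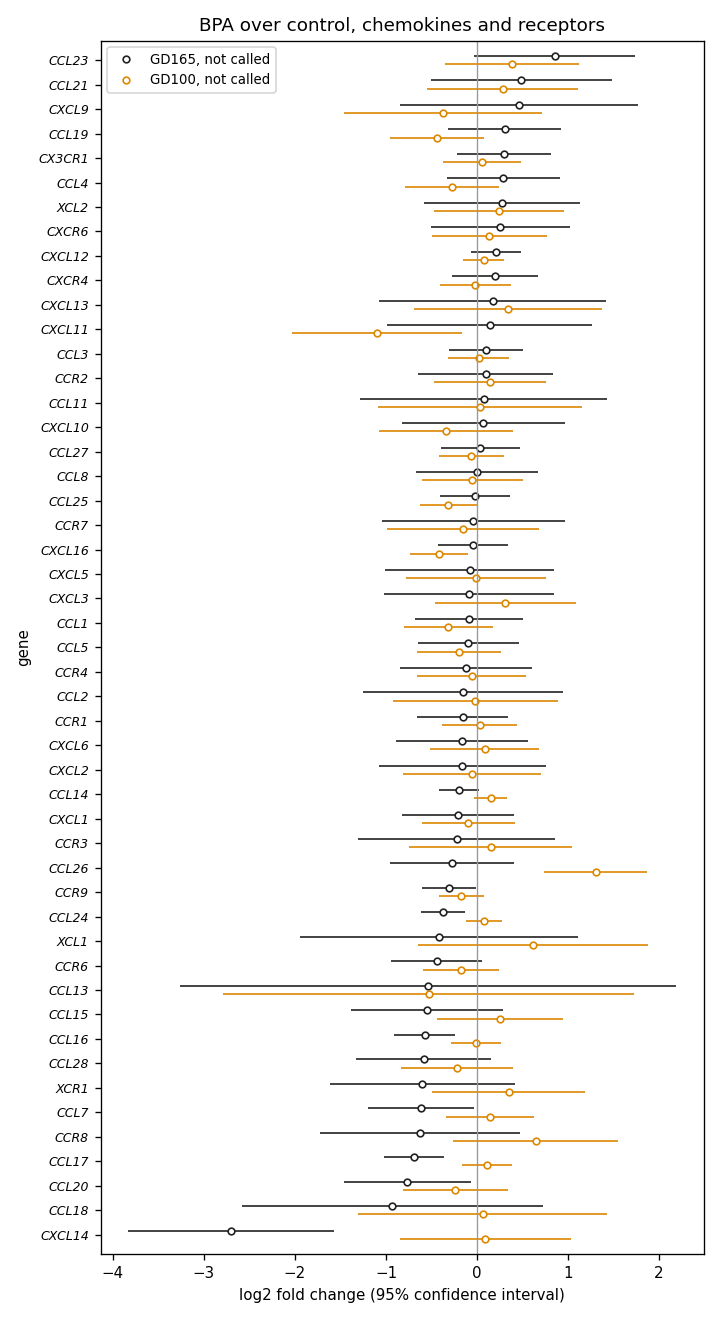
Log2 fold change of BPA over control (x axis) with its 95% confidence interval for 49 of the 50 genes (y axis), black at GD165 and orange at GD100, ordered by the GD165 value. No gene is called. CCL3, CCL28, CXCL5, CCR4 and CCR8 are drawn though above background on 0 arrays. CXCL14 lies lowest at GD165, at -2.70, and CCL26 lies highest at GD100, at 1.31.

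Receptors were read beside their ligands, each by its own difference and never as levels against one another. CCR7, the receptor of CCL19 and CCL21, differed by 0.52 ± 0.41 SE with age in controls and 0.63 ± 0.45 SE with age in BPA-exposed fetuses. CCL21, the lymphatic endothelial CCR7 ligand, differed by 0.24 ± 0.41 and 0.44 ± 0.45 SE. CCL19 thus rose while neither its receptor nor the other ligand was called.

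CXCR6, the receptor of CXCL16 on T and NK cells, had differences of the same sign as its ligand in both treatments. Its levels were 5.84, 5.44, 5.15, 5.58 and 5.01 in GD100 controls and 6.26, 7.06, 5.38 and 6.98 in GD165 controls. In BPA-exposed fetuses they were 5.23, 5.45, 5.31, 5.78 and 5.93 at GD100 and 7.23, 6.14 and 6.65 at GD165, without overlap. The difference was 1.01 ± 0.31 SE in controls (adjusted p = 0.0323) and 1.13 ± 0.34 SE in BPA-exposed fetuses (adjusted p = 0.0291), neither of them called. Without GD165 control replicate 5, the array with the highest skeletal muscle level, CXCR6 was called in controls.

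CXCL12, a stromal ligand that holds progenitor cells in place, differed with age by 0.26 ± 0.11 SE in controls and 0.40 ± 0.12 SE in BPA-exposed fetuses. Its receptor CXCR4 differed by -0.34 ± 0.19 and -0.12 ± 0.21 SE. The scavenging CXCL12 receptor, annotated under its older name CMKOR1 and now called ACKR3, was called in both comparisons of ages. It differed by 0.72 ± 0.10 SE in controls (1.65-fold, adjusted p = 0.000161) and 0.62 ± 0.11 SE in BPA-exposed fetuses (1.54-fold, adjusted p = 0.00129).

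CCR3, which receives CCL11, CCL24 and CCL26, was above background on 3 arrays only, so no difference of the receptor can be set beside the rise of CCL11. CCR2, the receptor of CCL2, CCL7, CCL8 and CCL13 on monocytes, differed by 0.72 ± 0.30 and 0.67 ± 0.33 SE, and CCL2 by 0.21 ± 0.45 and 0.08 ± 0.49 SE. CCR1, which binds CCL3 and CCL5, differed by 0.35 ± 0.20 SE in controls. CCR6 differed by 0.19 ± 0.21 SE and CCR9 by 0.27 ± 0.12 SE in controls. The lymphotactin XCL2 differed by 1.16 ± 0.35 and 1.19 ± 0.39 SE (adjusted p = 0.0294 and 0.0395, not called), and its receptor XCR1 was above background on 3 arrays. XCL2 itself was above background on 3 of 5 GD100 control and 4 of 5 GD100 BPA arrays. The neutrophil-attracting ligands CXCL1, CXCL2 and CXCL6 differed by 0.82 ± 0.25, 1.10 ± 0.38 and 0.75 ± 0.30 SE in controls, and none of them was called. None (0) of these genes was called with BPA at either age.

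**Figure D4:**
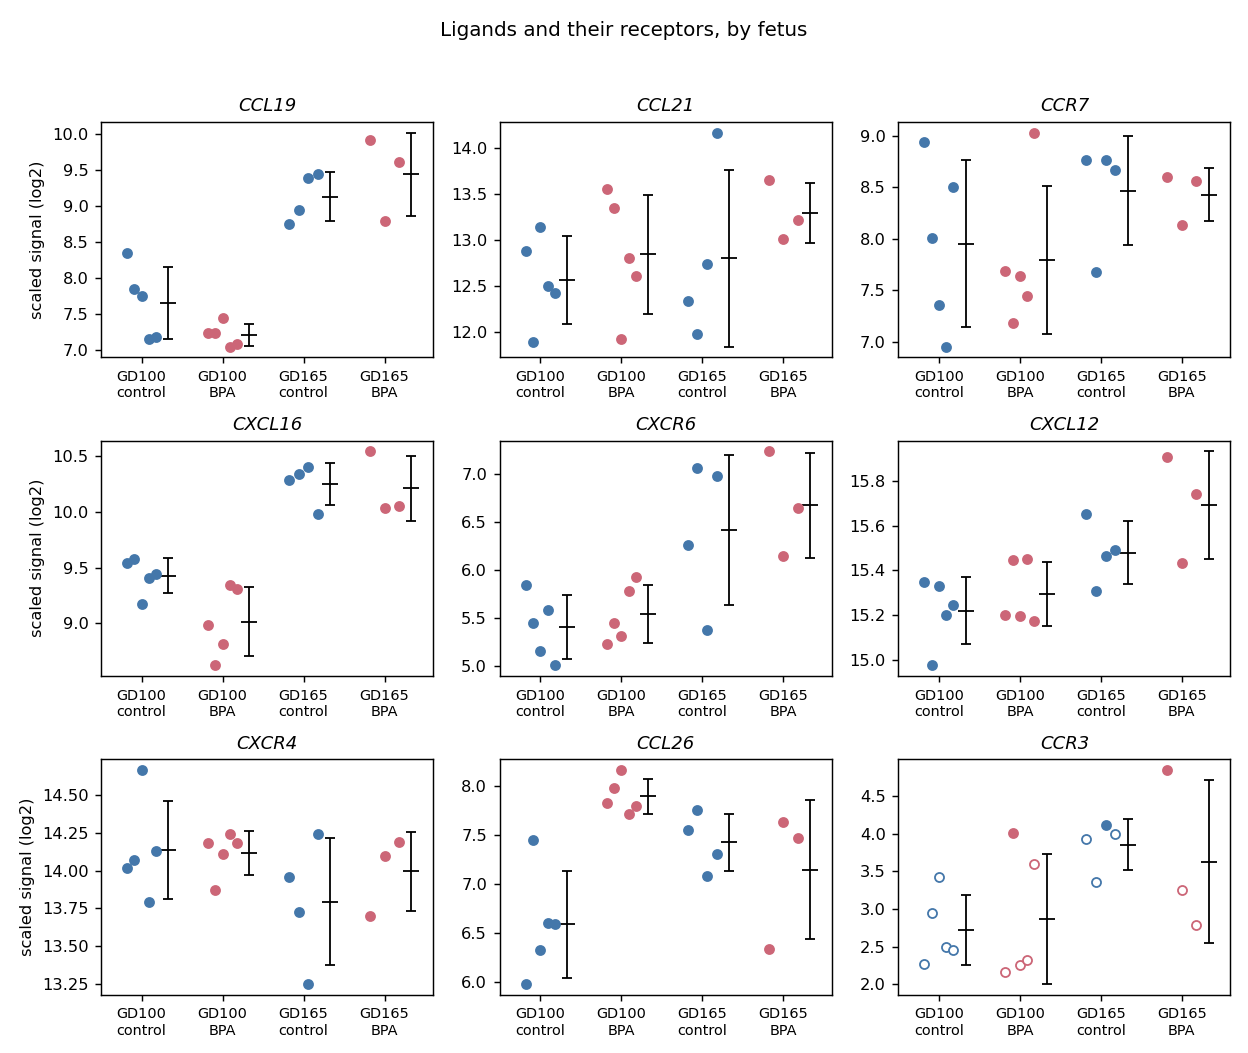
Scaled log2 signal (y axis, a separate scale per gene) of ligands and receptors in each fetus, by group on the x axis. Blue is control and red is BPA, open points were not well above background, and the black bar is the mean ± SD. CXCL16 lies higher at GD165 without overlap, CXCR6 overlaps between the ages in controls, and the CCR3 points are mostly open, since that receptor was above background on 3 of 17 arrays.

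Further chemokine genes carry older names on the array, or are named outside parentheses (CX3CL1), and fell outside the naming rule. They were looked up after the values of the 50 genes had been seen. CX3CL1, the membrane-tethered ligand of CX3CR1, was well above background on 0 of 10 GD100 arrays, on 4 of 4 GD165 control arrays and on 2 of 3 GD165 BPA arrays. It was at least 1.67-fold higher at GD165 in controls (adjusted p = 0.000285). In BPA-exposed fetuses it was also called higher at GD165 than at GD100 (adjusted p = 0.000673), with no fold given because 1 GD165 array was not above background. CX3CR1 itself differed by -0.14 ± 0.21 and 0.11 ± 0.23 SE. BLR1, the receptor now called CXCR5, was called lower with age in BPA-exposed fetuses (-0.62 ± 0.13 SE, adjusted p = 0.00488), against 0.04 ± 0.12 SE in controls, and the difference between the 2 was not called (-0.66 ± 0.18 SE, adjusted p = 0.518). IL8 (CXCL8) and MDC (CCL22) were above background on 0 of 17 arrays. GPR2 (CCR10), IL8RB (CXCR2), PF4, PF4V1, PPBP, CCRL1, CCRL2, CCBP2 and MGC12815 (a CCL3-like gene) were called in 0 comparisons, and IL8RA (CXCR1), above background on 1 array, has no value given. CXCR3 was not analysed here.

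Position in the genome groups many of these genes, and 46 of the 50 were found in the RefSeq table of the rhesus macaque assembly T2T-MMU8v2.0. Neighbours were taken as genes at most 4 coding genes apart. CCL2, CCL7, CCL11, CCL8, CCL13 and CCL1 form 1 such group, and in controls CCL11 was called while CCL2, CCL7, CCL8 and CCL13 differed by 0.21, 0.58, -0.11 and 2.10. CCL19 lies with CCL21 and CCL27, which differed by 0.24 and -0.35. CCL18 lies with CCL5, CCL16, CCL14, CCL15, CCL23 and CCL3, none of them called. CCL15 and CCL23 differed by 1.06 and 0.92, CCL5, CCL16 and CCL14 by 0.13, 0.40 and 0.02, and CCL3 was above background on 0 arrays. CCL23 was well above background on 1 of 5 GD100 control arrays, so its value rests largely on arrays near background. The receptors CCR9, CXCR6, XCR1, CCR1, CCR3 and CCR2 lie in another group. CCL24 with CCL26, CXCL9 with CXCL10 and CXCL11, and CXCL1 with CXCL6 form smaller groups. Of the 6 ligand groups, 3 held a single called gene in controls and 3 held none.

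A list of 69 names of chemokine signaling genes held older and newer names of some genes, and 58 were matched to the array by name. ACKR3 was not matched, since the array carries it as CMKOR1, so its calls given above are outside these counts. With age in controls 41 of the 58 were higher, and 9 were called, 8 that rose and 1 that fell, beside the 11.5% of all probes called. In BPA-exposed fetuses 37 were higher, and 8 were called, all of which rose, beside the 9.68% of all probes called. CD74, the receptor of the cytokine MIF, rose with age 4.42-fold in controls and 5.26-fold in BPA-exposed fetuses. The cytokine TNF rose 3.54-fold and 3.38-fold, and the transcription factor IRF1 1.92-fold and 2.14-fold. PTK2B, a kinase of chemokine signaling, rose 1.86-fold and 1.92-fold. NFKBIA, an inhibitor of NF-kB, rose 1.39-fold and 1.57-fold, and the proteoglycan SDC4 1.46-fold and 1.63-fold. IL6 and RGS2 rose in controls (3.44-fold and 1.95-fold) and were not called in BPA-exposed fetuses (2.65-fold and 1.55-fold). In controls GNG2, a G protein subunit, fell by 0.64 on the log2 scale. In BPA-exposed fetuses, the called rises with age also included IL1B (2.84-fold) and ELMO1 (1.5-fold). The median log2 fold change of the list was 0.16 in both comparisons. In the comparisons of BPA with control 0 of the 58 were called.

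Several leukocyte markers were higher at GD165, beside these ligands, and their part in the results was not tested. In bulk tissue, more cells of a type and more RNA per cell cannot be told apart. All 6 pan leukocyte markers were higher at GD165 in controls, with a median log2 fold change of 0.59 and 0 called, and their summed level was 13.3 to 13.8 in GD100 controls and 13.7 to 13.9 in GD165 controls. In BPA-exposed fetuses the summed level was 13.2 to 13.8 at GD100 and 13.6 to 14.4 at GD165, and CD48 was called higher at GD165. Of 11 macrophage markers 9 were higher in controls, of which LYZ was called (3.97-fold), and CD163 was above background on 0 arrays. Their summed level was 14.8 to 15.6 in GD100 controls, 15.6 to 16.2 in GD165 controls, 15.1 to 15.6 in GD100 BPA and 15.7 to 16.4 in GD165 BPA fetuses. Of 7 NK cell markers 6 were higher in controls, with PRF1, KLRB1 and GZMB called and KLRD1 above background on 0 arrays. Their summed level was 15.2 to 15.7 in GD100 and 15.7 to 15.9 in GD165 controls. In BPA-exposed fetuses 4 of the 7 were higher and 3 lower at GD165, with PRF1 and GZMB called higher. Their summed level there was 15.5 to 15.9 at GD100 and 15.2 to 15.9 at GD165. Of 9 T cell markers 8 were higher in controls, with CD8A the 1 called (2.03-fold) and CD3D above background on 0 arrays. The summed T cell level was 12.9 to 13.6 in GD100 and 12.7 to 13.2 in GD165 controls. In BPA-exposed fetuses 5 of the 9 were higher and 4 lower at GD165, with CD8A called higher (2.09-fold). The summed T cell level there was 13.1 to 13.8 at GD100 and 12.6 to 13.3 at GD165. Of 7 B cell markers 6 were higher in controls, with BLNK and POU2AF1 called. The summed B cell level was 11.6 to 11.7 in GD100 and 12.0 to 12.4 in GD165 controls. In BPA-exposed fetuses 5 of the 7 were higher at GD165, with BLNK called, and the summed level was 11.6 to 12.2 at GD100 and 11.9 to 12.2 at GD165. Of 7 neutrophil markers FCGR3B was called in controls, with CEACAM8 above background on 0 arrays. In BPA-exposed fetuses FCGR3B was called higher too, but 5 of the 7 neutrophil markers were lower at GD165 (median -0.60), and their summed level was 10.3 to 11.9 at GD100 and 10.1 to 11.6 at GD165. Of 8 endothelium markers VWF was called, at 2.46-fold, and the summed endothelium level was 15.9 to 16.4 in GD100 and 16.5 to 17.3 in GD165 controls.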

How the data were processed

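RNA from 17 fetal uteri, 1 per array on 6 slides, was analysed. The authors deposited linear intensities written by Agilent Feature Extraction 9.5, background-subtracted and detrended, without scaling between arrays. The deposited table of all arrays held the same signal intensities, identical in 711467 of 711467 values. Outlier spots were dropped, the log2 intensities of the remaining spots, 2 per probe, were averaged for 20217 probes, and each array was scaled to its 75th percentile. A probe was well above background on an array where all its used spots carried that mark. limma 3.58.1 in R 4.3.3 was fitted to 4 groups and all arrays, with two-sided tests, Benjamini-Hochberg adjustment over all probes and a threshold of 0.01; it takes the place of the error-weighted ANOVA of the study's methods. Exact permutation tests between 2 groups used scipy 1.17.1, whose two-sided p is the smaller one-sided p doubled. The exact test of the difference between the BPA effects instead counted regroupings with at least as large an absolute difference. The fit was tested on simulated data. The number of arrays limits the precision.

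Age results are given for every gene called in any comparison, CXCL14 among them. Up to 5 largest rises and 5 largest falls with age and with BPA among genes above background were also chosen. Of these only some values are printed. A few others were named after their values were seen. Genes and lists were chosen with earlier results of these data known. For a gene that no array of a group measured above background, a minimum fold was computed, with the dimmest well-measured probe of each array standing in for it. No coordinates are printed. A few single-gene results are not reported here, though the counts and medians include every member. Alternatives covered normexp (offset 50), median, quantile and no scaling, a filter that left 17149 probes, outlier spots, the mean over probes, slide or replicate blocks, the compared groups alone, a trend and robust prior, error weights, a threshold of 0.05 and leaving out each animal. Within-slide values and values of every probe of a gene were added after seeing the data.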

Additional observations from a re-analysis of the deposited data

Results flagged for a closer look

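For 6 results a sample or a group stood apart, among 21 genes that were called or chosen for a large rise or fall. Not all of their values are printed above. Of 63 groups of 4 or 5 arrays checked for a single distant sample, 2 had one, and chance gives about 1 in 20. CCL27 was 10.50 in GD165 control replicate 1, whereas the others of its group were at most 10.23. CXCL10 was 6.03 in GD100 BPA replicate 1, whereas the others were at most 5.49.

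The difference between the BPA effects at GD165 and GD100, tested by permuting treatment within each age (exact, 8820 regroupings), had p under 0.05 for 4 of the 21 genes, with p not adjusted for the 21 tests. These genes were named partly for large differences with BPA at 1 age, so the 4 are a description and not independent evidence. In limma 7.83% of all probes had an unadjusted p under 0.05 for this difference. By this exact permutation test it was -2.79 for CXCL14 (p = 0.0247), -1.58 for CCL26 (p = 0.00748), -0.79 for CCL17 (p = 0.00782) and -0.35 for CCL14 (p = 0.00918). In limma the adjusted p over all probes was 0.456, 0.482, 0.456 and 0.565 for these genes, so none passed.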

How the results depend on the processing

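Directions held in all 388 settings of the 17 gene results tried, with 357 on the same side of the threshold, 28 calls lost and 3 gained. The causes were not tested. These totals include the BPA results, which were uncalled in the main fit and in every setting, so the 357 does not measure how stable the calls were. All 28 losses were among the called age results. In BPA-exposed fetuses CCL11 and CXCL10 each lost the call in 7 of 22 alternatives. Members called with age in controls numbered 5, against 2 with slide as a fixed block (CXCL14 and XCL2), 1 with the replicate block (CCL18), 13 at an adjusted p of 0.05 and 4 to 8 without single animals (8 without GD165 control replicate 5). With age in BPA-exposed fetuses they numbered 4, against 1 with slide as a fixed block, 11 at 0.05 and 2 to 4 without single animals. With BPA, and for the difference of the BPA effects, the number was 0 in every setting run. Over all probes the calls with age in controls (2328) were 4279 at 0.05, 1525 without scaling, 1233 with slide as a fixed block, 958 with the replicate block, 1172 with the compared groups only and 1512 to 2271 without single animals. In BPA-exposed fetuses (1956) they were 4255, 512 with slide as a fixed block, 1176 with the compared groups only and 994 to 1535 without single animals. BPA at GD100 called 1 probe with the compared groups only and 0 without single animals, and BPA at GD165 and the difference each 0 to 1.

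The members' median log2 fold change with age in controls (0.45) was 0.21 with normexp, 0.31 with quantile normalization and 0.37 to 0.46 without single animals. In BPA-exposed fetuses (0.14) it was -0.025 with normexp, 0.33 without scaling and 0.060 to 0.32 without single animals. With BPA at GD165 (-0.11) it was 0.054 without scaling and -0.23 to 0.067 without single animals, and at GD100 -0.06 to 0.08. For the difference of the BPA effects (-0.09) it was 0.038 with quantile normalization, 0.11 without scaling, 0.12 with the replicate block and -0.24 to 0.067 without single animals. Replicate numbers did not pair the animals, since deviations of same-numbered arrays correlated by -0.17 to 0.12. Under the replicate block, CXCL14, CCL19, CXCL16 and CCL11 lost their calls in controls (adjusted p = 0.0104, 0.0143, 0.018 and 0.0489). CXCL16 lost its call in controls without scaling (adjusted p = 0.0169) and CCL11 with the compared groups only (0.0239). Weak probes limit the 15 genes not above background on every array.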
